A study of Mus musculus with 46 samples.

Results

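The RNA of 9 genes tied to glucocorticoid action was followed in mouse liver, of the 55416 genes in each deposited count table. No hormone level was used here. They were taken by symbol, and each matched exactly 1 Ensembl identifier. Nr3c1 encodes the glucocorticoid receptor. Hsd11b1 encodes the enzyme that regenerates active corticosterone from its inactive form inside the cell. Fkbp5, Tsc22d3, Sgk1, Zbtb16, Mt1 and Mt2 are genes whose transcription glucocorticoids raise in many tissues, and Tat is one whose transcription they raise in liver. All 9 passed the filter on low counts in every comparison, so none was lost to it. In the deposited gene models, on GRCm39, Mt2 spans chr8:94899292-94900196 (plus strand) and Mt1 chr8:94905710-94906955 (plus strand), and Tat lies on the same chromosome at chr8:110717069-110726435 (plus strand). Hsd11b1 spans chr1:192903942-192946383 (minus strand) and Zbtb16 chr9:48565597-48747522 (minus strand). Fkbp5 spans chr17:28618068-28736501 (minus strand) and Sgk1 chr10:21758083-21875802 (plus strand). Counts are sums over the exons of each gene.

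Each of 46 livers, snap-frozen and all from male mice, gave 1 bulk RNA library, and the raw counts of the 10 groups lie in 4 tables. In the Plvap line, on C57BL/6JBomTac, Plvap was knocked out in hepatic stellate cells, per the labels, with littermates as controls. Knockouts and controls are labelled with the same line name, which names Plvaptm1.1Salm and the Tg(Lrat-cre)1Rshw transgene. Lrat is a gene of vitamin A storage, so the Cre acts in stellate cells, the pericytes of the liver, while most liver RNA comes from hepatocytes that keep the gene. Whether the littermates carried the Cre, and the age of the mice, are not given in the sources used here. The chow fasted experiment holds 5 knockout and 6 control livers, taken after 12 h without food. The refed one holds 4 and 4, taken after 10 h of fasting and 2 h of refeeding on chow. The western diet one holds 4 and 5, from mice that also drank fructose water, and the high-fat one 5 and 5, with plain water, both fed for 6 weeks and fasted for 12 h. A separate experiment set 4 livers of whole-body Cav1 knockouts (STOCK Cav1tm1Mls/J) against 4 of C57BL/6N wild types, on chow after a 6 h fast, so these groups differ in stock as well as in Cav1. The chow fasted, refed and Cav1 experiments each have a table of their own, and both diets share the remaining one.

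Glucocorticoids are released by the adrenal cortex in a daily rhythm and in fasting and stress. Inside the cell they bind the receptor, which is held ready by heat shock proteins and immunophilins, moves to the nucleus and binds response elements near its target genes. In liver these targets serve the fasting state: Tat opens the breakdown of tyrosine for glucose and ketone production, and Sgk1 encodes a kinase of salt and nutrient signalling. Tsc22d3 encodes GILZ, an anti-inflammatory mediator, and Fkbp5 encodes a co-chaperone that lowers the receptor's affinity for hormone. Zbtb16 encodes a zinc finger transcription factor. Mt1 and Mt2 encode metallothioneins, small zinc-binding proteins that also respond to metals and to inflammatory cytokines.

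Total counts ran from 6656342 to 23311539 per library, levels are given as CPM, counts scaled to library size after TMM normalisation, and the lowest count of any member in any liver was 22 (Zbtb16). Plvap stood at 20%, 17.9%, 18.8% and 25.5% of control in the knockout livers of the chow fasted, refed, western and high-fat experiments, and in Cav1 knockouts Cav1 was at 16.3% of its wild type level. Among refed livers, 17 genes that average at least 1 CPM over all livers had no count in any liver, 14 of them mitochondrially encoded. Hepatocyte markers were abundant everywhere, with a summed level of at least 47850 CPM for 7 genes. Replicate A of the western diet controls stood apart by adrenal cortex markers. Its 4 adrenal cortex markers summed to 95.97 CPM, and Cyp11b1, which makes corticosterone, stood at 12.11 CPM and Star, which carries cholesterol to the steroid-forming enzymes, at 25.58 CPM. The next highest summed level in any group was 7.769 CPM, in replicate A of the high-fat controls. For Hsd11b1, fold changes between 2 groups that use replicate A of the western diet controls, and the average over states, are given with and without it. Spreads, correlations, marker lists and differences between Plvap effects include that liver.

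Promoter windows of 3 members are shown because Mt1 and Mt2 moved together in every table and because Sgk1 was among the genes lowered on high-fat diet. RefSeq windows of 300 bases, from 250 before to 50 after a transcript start, were read on GRCm38.p6 for 7 of the 9 members. In the sequences of Mt2 (chr8:94172368-94172667, plus strand) and Mt1 (chr8:94178839-94179138, plus strand), the capitals mark the core of the metal response element, searched on both strands as TGCGCNC or TGCACNC. In the sequence of Sgk1 (chr10:21993640-21993939, plus strand, 1 of several starts), they mark a palindromic glucocorticoid response element, searched on both strands as AGAACA, any 3 bases and TGTTC.
Mt2: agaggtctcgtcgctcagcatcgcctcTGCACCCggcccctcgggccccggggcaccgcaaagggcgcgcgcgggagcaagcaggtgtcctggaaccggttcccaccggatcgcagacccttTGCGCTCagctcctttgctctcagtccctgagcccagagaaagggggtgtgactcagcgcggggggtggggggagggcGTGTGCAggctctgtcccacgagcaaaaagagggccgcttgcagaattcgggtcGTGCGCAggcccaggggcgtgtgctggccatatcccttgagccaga
Mt1: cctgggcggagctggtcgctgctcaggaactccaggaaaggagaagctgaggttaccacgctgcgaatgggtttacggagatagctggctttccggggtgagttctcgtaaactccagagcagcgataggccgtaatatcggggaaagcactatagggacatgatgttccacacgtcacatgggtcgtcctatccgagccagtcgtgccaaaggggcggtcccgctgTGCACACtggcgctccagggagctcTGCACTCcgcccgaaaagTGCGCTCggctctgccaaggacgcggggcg
Sgk1: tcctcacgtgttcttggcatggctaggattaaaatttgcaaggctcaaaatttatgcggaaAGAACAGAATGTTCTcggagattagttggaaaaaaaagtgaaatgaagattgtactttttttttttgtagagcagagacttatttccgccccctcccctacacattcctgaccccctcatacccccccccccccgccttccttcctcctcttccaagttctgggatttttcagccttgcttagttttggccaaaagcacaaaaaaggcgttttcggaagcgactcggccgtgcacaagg
The Mt2 window held 4 cores of the metal response element, starting at -223, -128, -50 and 5 from the start, and the Mt1 window held 3, at -23, 3 and 21. At least 1 such core lay in 25.7%, and 4 or more in 0.5175%, of 32851 windows of that length over all genes. The palindromic element of Sgk1 begins at -189, and its second match at -188 is the opposite strand of the same site. Such an element lay in 16 of the 32851 windows (0.0487%). The Sgk1 window shown was picked from several because it held the match, and no other Sgk1 window held one. Nor did any window of Mt1, Mt2, Tat, Fkbp5, Tsc22d3 or Hsd11b1. These are matches of letters in a short window.

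In CPM per kilobase of exon (CPM per kb), which allow genes to be compared, Tat or Mt1 had the highest mean and Zbtb16 the lowest in each of the 10 groups. In the chow fasted knockouts Mt1 averaged 1077 CPM per kb, Tat 1012, Mt2 649.3 and Hsd11b1 205.9. In the chow fasted controls Tat averaged 692.1 CPM per kb, Mt1 344.5, Mt2 209.5 and Hsd11b1 143.9. The SD of Mt1 was 459.7 CPM per kb in those knockouts (n = 5), more than its distance to Tat and to Mt2, so these 3 are not separated there. In those controls it was 247.1 CPM per kb (n = 6), more than the distance to Mt2 and less than that to Tat. Tsc22d3 came next at 41 CPM per kb in the knockouts and 30.92 in the controls. Nr3c1, Sgk1 and Fkbp5 lay close together, between 7.951 and 11.96 CPM per kb in those knockouts and between 7.411 and 8.273 in those controls, and in the controls their distances are smaller than their SDs (1.022 for Nr3c1, 3.638 for Sgk1 and 1.076 for Fkbp5). In the Cav1 experiment the metallothioneins were low: Mt1 averaged 60.9 CPM per kb in Cav1 knockouts and 33.96 in wild types, and Mt2 averaged 17.92 and 11.94.

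The spread between livers differed widely among the members. After removal of group means, the SD between livers of 1 group was 0.19 for Nr3c1 and 0.28 for Hsd11b1 on the log2 scale, against a median of 0.21 over 8533 genes. For Hsd11b1 it was 0.38 among the diet livers, which include the western diet control with adrenal markers. In each of the other tables the SD of Hsd11b1 was 0.16. Over all groups the SD was 1.43 for Mt2, 1.22 for Zbtb16, 1.11 for Mt1, 0.81 for Tsc22d3 and 0.63 for Tat. Each of those 5 was more variable than at least 98.48% of the genes compared, which average at least 5 CPM in every table. Zbtb16 itself is under that cut in the Cav1 experiment, with means of 2.362 CPM in knockouts and 5.792 CPM in wild types. It is thus set against genes with higher counts. Over all 46 livers Mt2 ranged from 1.43 to 577 CPM, Mt1 from 11.5 to 1848 CPM and Nr3c1 from 44.23 to 100.4 CPM. 

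**Figure D1:**
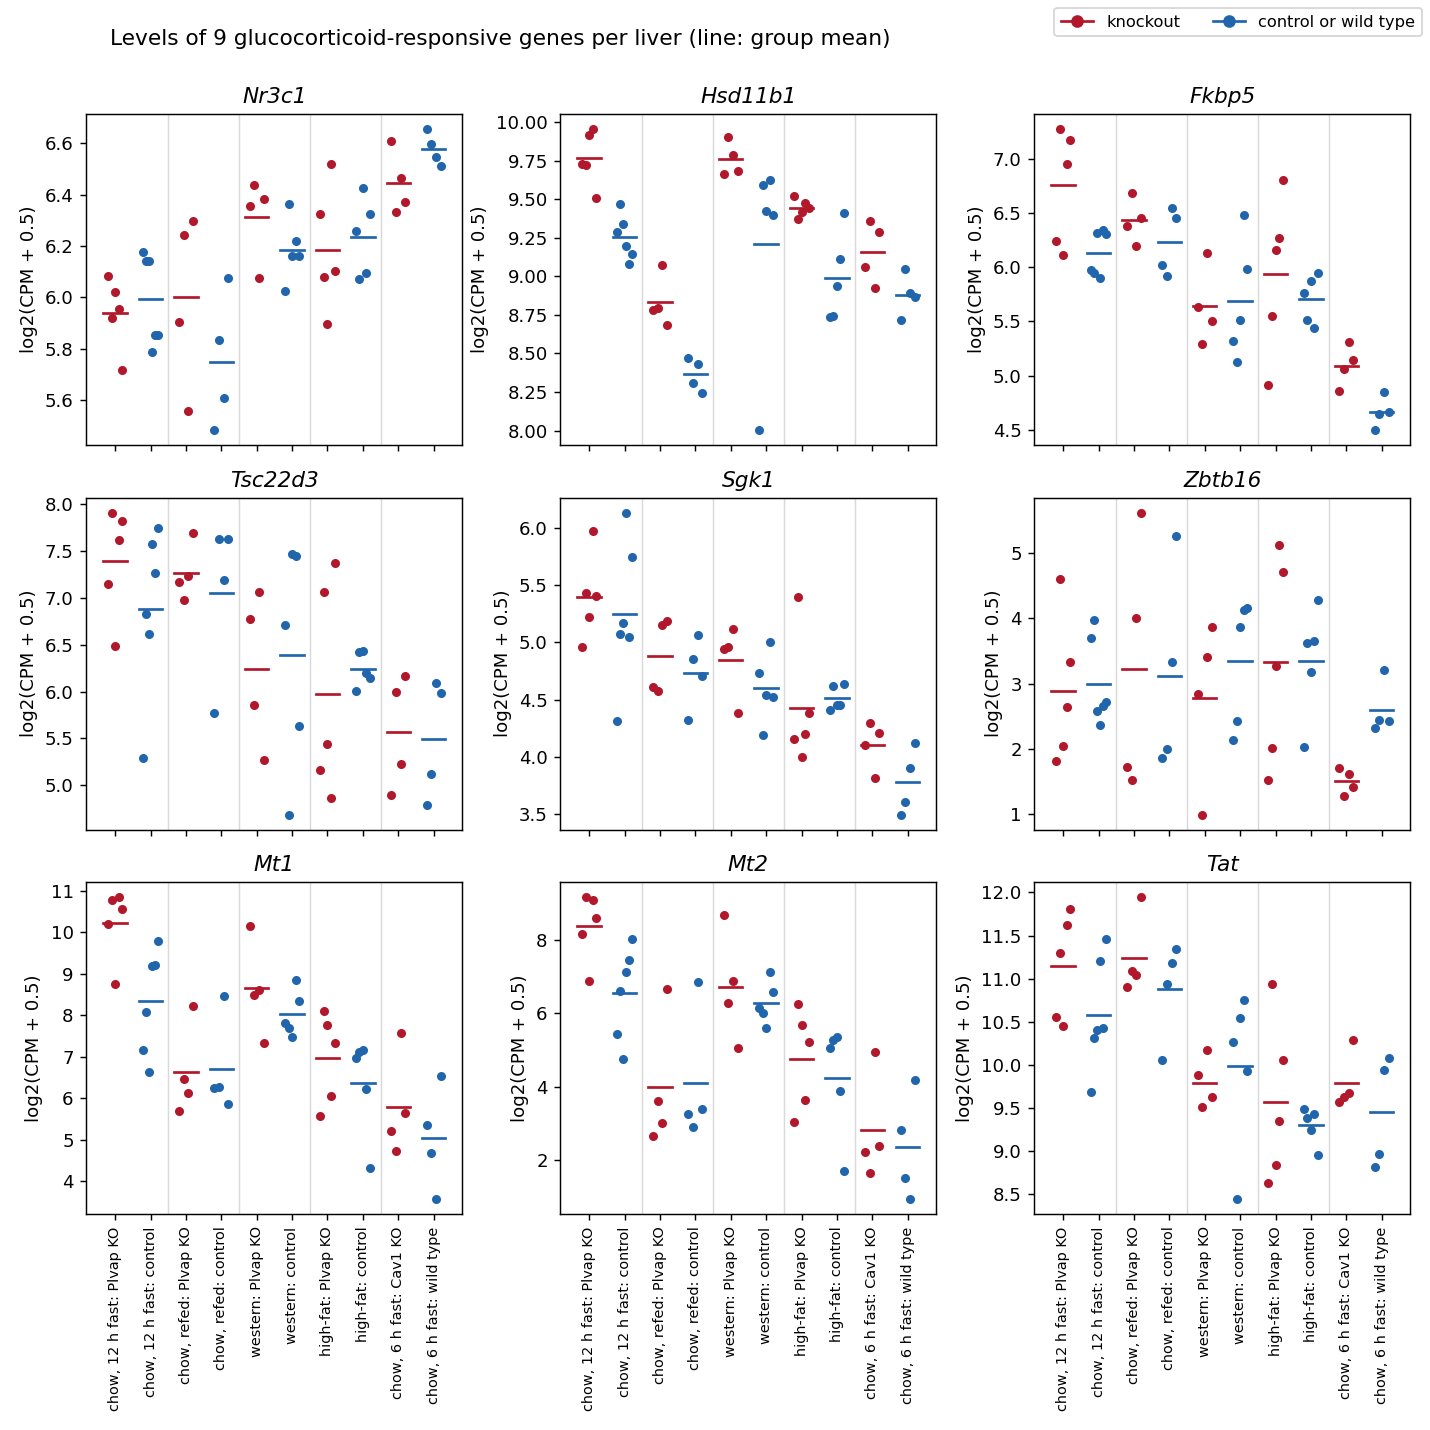
Level of each of the 9 genes in every liver, as log2 of normalised CPM plus 0.5, for the 10 groups along the horizontal axis. Red points are knockout livers, blue points control or wild type livers, and lines are group means. Nr3c1 stays within a 2.27-fold range over all livers, whereas Mt2 spans a 403.5-fold range.

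With stellate Plvap knockout, Hsd11b1 was higher on chow after a 12 h fast. Its levels were 846.3, 845.3, 964.1, 993.7 and 727.1 CPM in the knockout livers, against 624.5, 707.8, 645.6, 587, 541 and 564.9 CPM in the controls. Every knockout liver lay above every control liver, as was the case, in either direction, for 2.86% of genes. The log2 fold change was 0.51 ± 0.11 (SE), a ratio of 1.42, with an adjusted p of 0.0203 (edgeR's quasi-likelihood test, Benjamini-Hochberg adjustment over all genes tested). Hsd11b1 was thus the 1 member of 9 called in this comparison, where 2.25% of all 12840 genes tested were called and 1.13% were called higher. Without replicate D of the knockouts the adjusted p was 0.0573, at a log2 fold change of 0.46.

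The same gene stood higher in the knockouts of the other feeding states without passing the test there. On refeeding Hsd11b1 had 103.4, 104.4, 126.6 and 96.69 CPM per kb in knockouts, against 83.35, 74.51, 81.22 and 71.28 CPM per kb in controls. These groups do not overlap, as was the case for 5.7% of genes in that comparison. Its log2 fold change was 0.48 ± 0.13, with an adjusted p of 0.424. On western diet it had 810.3, 955.2, 881.6 and 820.1 CPM in knockouts, against 255.8, 772, 685.3, 787.2 and 674.6 CPM in controls. The groups do not overlap, as was the case for 3.13% of genes, and the lowest control is replicate A, the liver with adrenal markers. The log2 fold change was 0.44 ± 0.21 (adjusted p 0.511) with that liver and 0.24 ± 0.13 (adjusted p 0.587) without it. On high-fat diet Hsd11b1 had 733.1, 662, 681.7, 712.5 and 696.4 CPM in knockouts, against 426.1, 427.4, 489.6, 554 and 680.2 CPM in controls, a log2 fold change of 0.44 ± 0.20 with an adjusted p of 0.342. There the highest control reached into the knockout range.

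Averaged over the 4 states in a joint fit of the Plvap line, Hsd11b1 was higher by 0.47 ± 0.09 on the log2 scale in the knockouts, with an adjusted p of 5e-04. It was the 1 member of 9 called, where 5.58% of all 14234 genes were and 3.13% were called higher. This average includes the chow fasted livers that carry the call above, so it is no separate evidence. Without replicate A of the western diet controls the average was 0.42 ± 0.06, with an adjusted p of 5.62e-06. In the fit with all livers all 9 members had a positive average, with a median log2 fold change of 0.27, where the median over all genes was -0.00425. The other 8 did not pass, with adjusted p-values from 0.213 for Mt1 to 0.933 for Tsc22d3. Several members vary together from liver to liver, so the 9 signs are not independent. The sign is not stable for Zbtb16, which was at 0.12 here and at -0.545 with limma-voom, or for Tsc22d3, at 0.06 here and down to -0.046 without 1 liver.

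Albumin RNA moved with genotype as well. The 7 hepatocyte markers summed to between 89660 and 113600 CPM in chow fasted knockouts and to between 54270 and 71570 CPM in chow fasted controls. Of these 7 markers 1 passed the test, Alb, with a log2 fold change of 0.97 ± 0.12 and an adjusted p of 0.000582. No hepatocyte marker was at 0 in any group. Of the other marker lists, Lyve1 of endothelial cells and Cela2a of the pancreas were higher there, at 0.64 ± 0.15 and 1.04 ± 0.25 (adjusted p 0.0347 and 0.0391), with Cela2a averaging 1.82 CPM in knockouts and 0.872 CPM in controls. In the average over the 4 states 3 of 7 hepatocyte markers were higher, where 3.13% of all genes were. Lyve1 (0.62 ± 0.10), Cela2a (1.14 ± 0.23) and Cd79a of B cells (0.83 ± 0.18) were higher too. The adipose markers Plin1 and Adipoq were lower, at -4.01 ± 1.15 and -2.59 ± 0.77 (adjusted p 0.0336 and 0.0402). Their highest levels, 5.587 and 4.966 CPM, were in replicate A of the western diet controls, and both fold changes include that liver. Among Plvap knockouts Plin1 stayed at or below 0.3254 CPM. In whole tissue a change in the number of cells of a type and a change in RNA per cell cannot be told apart, and the part of these levels in the Hsd11b1 result was not tested.

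The metallothioneins had the largest mean differences on chow fasting, and these did not pass the test. Mt1 had 1170, 1746, 429.8, 1848 and 1519 CPM in knockouts, against 143.8, 270.7, 99.46, 581.3, 595 and 885.2 CPM in controls. All knockout livers but replicate C exceeded every control. This gave a log2 fold change of 1.64 ± 0.61 with an adjusted p of 0.203. Mt2 had 283.5, 577, 116.5, 544.8 and 387.2 CPM in knockouts, against 42.44, 96.24, 26.48, 139, 174.3 and 260.7 CPM in controls. Its log2 fold change was 1.63 ± 0.62 with an adjusted p of 0.212. Neutrophil markers, 6 genes, summed to between 6.695 and 51.38 CPM in those knockouts and to between 2.358 and 12.18 CPM in those controls. Of 12 acute phase genes, 1 was called in this comparison, where 2.25% of all genes were. That gene was Fga, at a log2 fold change of 0.57 ± 0.14 and an adjusted p of 0.044. The part of either in the metallothionein values was not tested.

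Among the classical targets of the receptor on chow fasting, Fkbp5 came nearest to a call. It had 75.37, 154.6, 68.74, 123.6 and 144.1 CPM in knockouts, against 62.35, 61.21, 79.14, 59.23, 80.43 and 78.65 CPM in controls. Replicates B, D and E of the knockouts stood above all controls, and replicates A and C lay among them. The log2 fold change was 0.68 ± 0.21 with an adjusted p of 0.112, and DESeq2 gave an adjusted p of 0.0172 for it. Without knockout replicate C, edgeR called it, at 0.81 with an adjusted p of 0.0186. Tat averaged 2433 ± 972 CPM in knockouts and 1664 ± 753.9 CPM in controls (SD, n = 5 and 6), a log2 fold change of 0.54 ± 0.35 with an adjusted p of 0.466. Tsc22d3 averaged 178 ± 62.35 and 134.2 ± 64.35 CPM in those knockouts and controls, and Sgk1 42.82 ± 11.93 and 40.53 ± 17.84 CPM. The receptor itself, Nr3c1, averaged 61.1 ± 5.728 CPM in knockouts and 63.57 ± 7.852 CPM in controls, with a 95% interval of the log2 fold change from -0.27 to 0.14.

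In the refed, western and high-fat livers edgeR called 0 of 9 members between Plvap knockout and control. Few genes of any kind were called: 0.0227% of 13228 on refeeding, 0.0148% of 13533 on western diet and 0.281% of 13533 on high-fat diet. At an unadjusted p under 0.05, 1 member passed on refeeding, 0 on western and 1 on high-fat diet, and DESeq2 and limma-voom called 0 members in each. The replicate letters paired the refed livers. With the letter as a block, 30 genes were called there and again 0 members, and Hsd11b1 had an adjusted p of 0.0934. For Nr3c1 the 95% intervals of the log2 fold change were -0.11 to 0.65 on refeeding, -0.12 to 0.37 on western diet and -0.27 to 0.195 on high-fat diet. For Mt1 they were far wider, from -2.02 to 1.68, from -0.46 to 2.21 and from -0.66 to 1.88. Mt1 was uneven within groups: on refeeding it had 51.49, 87.66, 69.12 and 296.9 CPM in knockouts, against 75.06, 77.05, 353.6 and 58.04 CPM in controls, with 1 high liver on each side.

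With whole-body Cav1 knockout, Zbtb16 was lower. It had 2.77, 1.917, 2.58 and 2.181 CPM in Cav1 knockouts, against 4.512, 4.952, 8.807 and 4.895 CPM in wild types. The groups do not overlap, as was the case for 13% of all genes in this comparison. This gave a log2 fold change of -1.28 ± 0.25 with an adjusted p of 0.0155. Zbtb16 was the 1 member of 9 called, where 4.68% of 12978 genes were and 2.11% were called lower. It remained called without each of the 8 livers in turn and under the other 8 settings tried, which gave log2 fold changes from -1.30 to -1.23. In the Plvap line the same gene swung widely within groups, from 1.495 to 14.12 CPM among western diet knockouts for example, and edgeR called it in none of the Plvap line's comparisons.

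Fkbp5 was higher on average in Cav1 knockouts and missed the threshold. It had 28.47, 32.79, 39.17 and 34.83 CPM in Cav1 knockouts, against 22.05, 24.47, 28.25 and 24.86 CPM in wild types. The lowest knockout lay just above the highest wild type. The log2 fold change was 0.46 ± 0.12 with an adjusted p of 0.0583, and DESeq2 gave an adjusted p of 0.0281. It was called by edgeR without knockout replicate A (adjusted p 0.038) or B (0.0474). Hsd11b1 had 125.7, 154.4, 114.2 and 146.5 CPM per kb in Cav1 knockouts, against 99.04, 124.1, 111.7 and 109.7 CPM per kb in wild types, a log2 fold change of 0.30 ± 0.11 with an adjusted p of 0.192. The 7 hepatocyte markers summed to between 82250 and 113400 CPM in Cav1 knockouts and to between 66610 and 77970 CPM in wild types, and of them Apoa1 and Alb passed the test. The 5 adipose markers summed to between 1659 and 2990 CPM in Cav1 knockouts and to between 2867 and 3481 CPM in wild types. The part of either marker list in the Zbtb16 result was not tested.

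**Figure D2:**
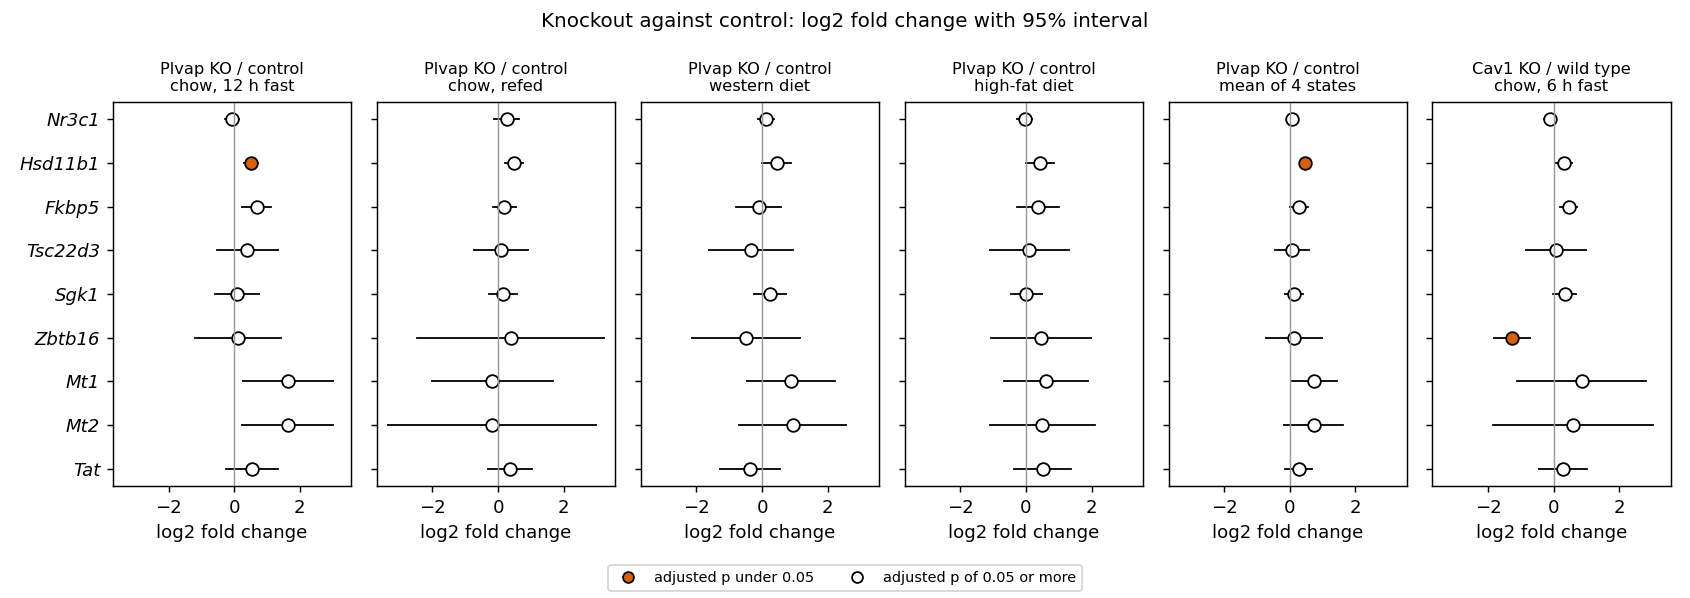
Log2 fold change of the 9 genes, knockout over control or wild type, for the Plvap line in 4 states and on average and for the Cav1 experiment. Points are estimates, lines 95% intervals, and filled points have an adjusted p under 0.05. Filled points are Hsd11b1 on chow fasting and on average, at 0.51 and 0.47, and Zbtb16 in the Cav1 experiment, at -1.28.

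Refeeding against the 12 h fast, and each diet against chow, set groups of different tables against each other, so that table and condition cannot be told apart in what follows. The knockout and control comparisons were each made within genotype. On refeeding Hsd11b1 was lower in both. Refed knockouts had 96.69 to 126.6 CPM per kb, against 171.1 to 233.7 CPM per kb in fasted knockouts, a log2 fold change of -0.91 ± 0.18 with an adjusted p of 7.29e-05. Refed controls had 71.28 to 83.35 CPM per kb, against 127.3 to 166.5 CPM per kb in fasted controls, a log2 fold change of -0.88 ± 0.17 with an adjusted p of 7.6e-05. The refed livers lay below the fasted ones without overlap in both genotypes. The groups did not overlap, in either direction, for 34.3% of genes in knockouts and 33.4% in controls.

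In the knockouts the metallothioneins were lower on refeeding too. Mt1 had 51.49 to 296.9 CPM in refed knockouts, against 429.8 to 1848 CPM in fasted knockouts, a log2 fold change of -3.39 ± 0.78 with an adjusted p of 0.000668. Mt2 had 5.753 to 100.5 CPM in refed knockouts, against 116.5 to 577 CPM in fasted knockouts, a log2 fold change of -3.58 ± 1.03 with an adjusted p of 0.00486. In the controls the groups overlapped. Mt1 differed there by -1.59 ± 0.70 (adjusted p 0.0636) and Mt2 by -1.79 ± 0.93 (adjusted p 0.114). Refed control replicate C, with 353.6 CPM of Mt1, carries much of that overlap: without it the log2 fold changes were -2.60 for Mt1 and -3.82 for Mt2, with adjusted p-values of 0.00796 and 0.00416. Sgk1 in controls was called as lower without fasted control replicate A, at -0.73 with an adjusted p of 0.0167, and Nr3c1 without refed control replicate D, at -0.36 with an adjusted p of 0.0345. The difference of the refeeding responses between genotypes was -1.80 ± 0.96 for Mt1 and did not pass the test (adjusted p 0.635).

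In number, 3 of 9 members were lower on refeeding in knockouts and 1 of 9 in controls, where 47.2% and 46.9% of all 14234 genes were called, 22.6% and 22.7% as lower. Tat had 1908 to 3950 CPM in refed knockouts, against 1402 to 3582 CPM in fasted knockouts, and 1060 to 2603 CPM in refed controls, against 821.3 to 2815 CPM in fasted controls. Its log2 fold changes were 0.09 ± 0.42 (adjusted p 0.884) in knockouts and 0.28 ± 0.40 (adjusted p 0.599) in controls. Of 8 Kupffer cell and macrophage markers 4 were lower in refed knockouts and 5 in refed controls, with summed levels of 293.8 to 327.7 CPM in refed knockouts, against 589.6 to 837.5 CPM in fasted knockouts. In controls that sum was 203.3 to 326.7 CPM refed, against 417.2 to 656.6 CPM fasted. Their part in the metallothionein and Hsd11b1 values was not tested.

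On high-fat diet Tat, Sgk1 and Mt1 were lower than on chow in both genotypes, and Mt2 in knockouts. Tat had 394.3, 1964, 458.2, 653.5 and 1067 CPM in high-fat knockouts, against 1402 to 3582 CPM in chow knockouts, a log2 fold change of -1.41 ± 0.40 with an adjusted p of 0.0158. In controls it had 716.4, 665.9, 606.1, 689.8 and 495.1 CPM on high-fat diet, against 821.3 to 2815 CPM on chow, with no overlap (7.31% of genes had none). That log2 fold change was -1.37 ± 0.39 with an adjusted p of 0.0243. Sgk1 differed by -0.91 ± 0.26 in knockouts (adjusted p 0.0157) and by -0.84 ± 0.25 in controls (adjusted p 0.0348). Its range was 15.53 to 41.65 CPM in high-fat knockouts, against 30.61 to 62.35 CPM in chow knockouts. In controls it was 20.77 to 24.39 CPM on high-fat diet, against 19.45 to 69.54 CPM on chow.

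The metallothioneins were lower as well, with Mt2 in controls short of the threshold. Mt1 had 47.46, 275.2, 216.2, 66.1 and 161.4 CPM in high-fat knockouts, all below the 429.8 CPM of the lowest chow knockout (9.3% of genes did not overlap), a log2 fold change of -3.12 ± 0.71 with an adjusted p of 0.00346. Mt2 differed by -3.37 ± 0.93 in knockouts (adjusted p 0.0135). In controls Mt1 had 125.8, 138.1, 142.7, 74.45 and 19.61 CPM on high-fat diet, overlapping the chow controls, at -2.08 ± 0.66 with an adjusted p of 0.0468. Mt2 in controls, at -2.24 ± 0.87, had an adjusted p of 0.109. Together 4 of 9 members were lower in knockouts and 3 of 9 in controls, where 15.4% and 8.46% of all 14234 genes were called, 7.22% and 4.25% as lower. No member was called higher. In controls the calls depended on single livers. Mt1 remained called in 21 of 38 fits that left out 1 liver of any Plvap group, Sgk1 in 31 and Tat in 34. Most of those livers were in neither group compared. Mt1 lost its call without any 1 of the high-fat controls, or without chow control B, D, E or F. Livers of neither group compared mattered for Mt1 too, at adjusted p-values from 0.0503 to 0.0521. Its call was lost without chow knockout A, B or E, refed knockout B, western control C or E, or western knockout B or C. Sgk1 lost its call without any 1 of the high-fat controls, or without chow control D or F. Tat lost it without high-fat control C or E, or chow control D or F. None of the 3 was called without the filter on low counts. Tsc22d3 and Fkbp5 had negative estimates in both genotypes that did not pass, for example -1.12 ± 0.51 for Tsc22d3 in knockouts with an adjusted p of 0.131. With only the groups compared in the fit, Fkbp5 was called in controls, at -0.41 with an adjusted p of 0.027. Sgk1 (adjusted p 0.0727) and Mt1 (0.087) lost their calls in controls in that fit. In knockouts Sgk1 lost its call without chow replicate D (adjusted p 0.069), and Tat without chow replicate E or high-fat replicate A (adjusted p 0.0505 for each). Both also lost it with only those 2 groups in the fit (adjusted p 0.065 for Sgk1 and 0.091 for Tat), and Sgk1 without the filter on low counts (0.0504). DESeq2 called 5 members there, with Fkbp5, and limma-voom 6, with Fkbp5 and Tsc22d3. Fkbp5 gained one there in 5 of the 38 fits, with the smallest adjusted p, 0.0139, without high-fat replicate E. Hsd11b1 in knockouts had a log2 fold change of -0.305 and an adjusted p of 0.0485 when the western diet control with adrenal markers was left out of the joint fit.

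Western diet gave 1 call against chow, in knockouts. Fkbp5 had 49.22, 38.67, 69.42 and 44.97 CPM in western knockouts, against 75.37, 154.6, 68.74, 123.6 and 144.1 CPM in chow knockouts, and the groups overlap by 1 liver each. The log2 fold change was -1.15 ± 0.29 with an adjusted p of 0.0271. Fkbp5 was thus the 1 of 9 members called, where 2.27% of 14234 genes were called and 1.25% were called lower. It was not called in 6 of 38 fits that left out 1 liver of any Plvap group, where adjusted p-values reached 0.112. All 6 left out a liver of the groups compared, chow knockout B, D or E or western knockout A, B or D. Its call was also lost without the filter on low counts (adjusted p 0.0681) and with only the groups compared in the fit (0.0724). Tat had 727.3 to 1149 CPM in western knockouts, against 1402 to 3582 CPM in chow knockouts, with no overlap (8.42% of genes had none). Its log2 fold change was -1.42 ± 0.43 with an adjusted p of 0.0785, and DESeq2 gave 0.0238. Nr3c1 had 66.89 to 86.12 CPM in western knockouts, against 52.12 to 67.24 CPM in chow knockouts, a log2 fold change of 0.385 ± 0.136 with an adjusted p of 0.13. With limma-voom Nr3c1 (adjusted p 0.0492) and Tat (0.0318) were called. With only the groups compared in the edgeR fit they were called as well, at 0.0434 and 0.0384. In the controls edgeR, DESeq2 and limma-voom each called 0 of 9 members between western diet and chow, where edgeR called 1.81% of all genes, and 1 member had an unadjusted p under 0.05. Sgk1 was called there without chow control replicate A, at -0.88 with an adjusted p of 0.0478. Hsd11b1 had a log2 fold change of 0.06 ± 0.16 in controls, and of 0.26 ± 0.11 (adjusted p 0.283) without the liver with adrenal markers.

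Both diets lie in 1 table, so western and high-fat livers can be compared directly. EdgeR called 0 of 9 members in knockouts, where 8.45% of 13533 genes were called, and 0 of 9 in controls, where 2.09% were. At an unadjusted p under 0.05 there were 2 members in each genotype, and DESeq2 called 2 members in knockouts and 0 in controls. Those 2 were Mt1 and Mt2. Mt1 had 1146, 360.3, 391.7 and 159.8 CPM in western knockouts, against 47.46, 275.2, 216.2, 66.1 and 161.4 CPM in high-fat knockouts, a log2 fold change of 1.74 ± 0.64 with an adjusted p of 0.0951. In controls it had 225.9, 206.6, 176.9, 463.2 and 325.2 CPM on western diet, against 125.8, 138.1, 142.7, 74.45 and 19.61 CPM on high-fat diet. Those control groups do not overlap, as for 4.37% of genes, and the log2 fold change was 1.47 ± 0.61 with an adjusted p of 0.257. Sgk1 in knockouts, western against high-fat, was called without high-fat knockout replicate B, at 0.68 with an adjusted p of 0.0158. Hsd11b1 in controls, western against high-fat, was 0.29 ± 0.20 (adjusted p 0.543) with all livers and 0.50 ± 0.12 (adjusted p 0.0313) without the liver with adrenal markers.

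**Figure D3:**
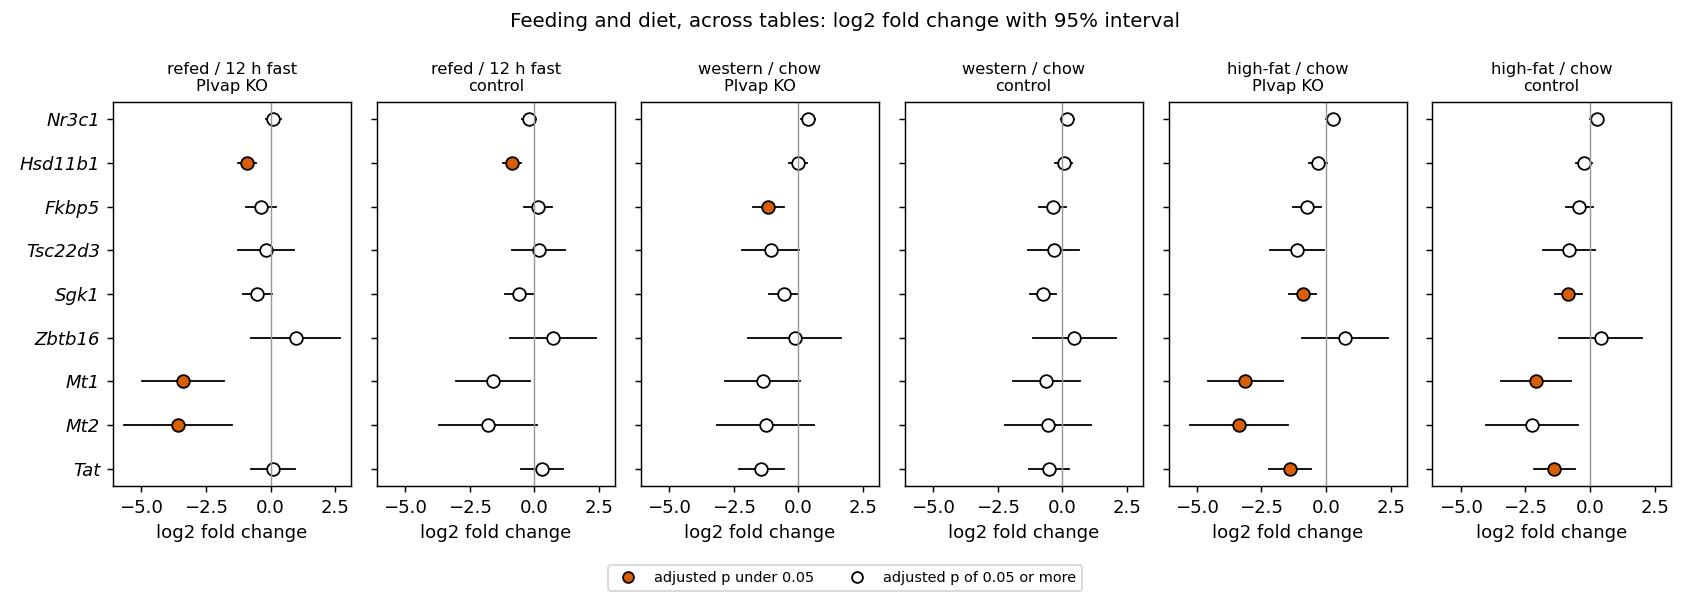
Log2 fold change of the 9 genes for refed over fasted livers and for each diet over chow, in Plvap knockouts and in controls, with 95% intervals. Groups come from different tables, and filled points have an adjusted p under 0.05. Metallothioneins have the lowest estimates on refeeding and on high-fat diet, down to -3.58 for Mt2 in refed knockouts.

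No difference of the Plvap effect between states passed the test for any member. EdgeR called 0% of all genes for the refed, western and high-fat effects minus the chow fasted effect, and for the western minus the high-fat effect. At an unadjusted p under 0.05 those comparisons held 1192, 437, 1164 and 1546 genes, and DESeq2 called 5, 2, 12 and 56. For Hsd11b1 the differences from the chow fasted effect were -0.03 ± 0.24 on refeeding, -0.06 ± 0.24 on western and -0.08 ± 0.23 on high-fat diet. Their 95% intervals, the widest from -0.52 to 0.47 on refeeding, still allow differences as large as the effect itself. For Fkbp5 the western minus the chow fasted effect was -0.78 ± 0.38 (95% interval -1.56 to -0.004) with an adjusted p of 1.

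The genes that hold the receptor and carry its hormone were listed beside the members. Of 7 genes of steroid supply and clearance 6 were tested, and 1 was called in the chow fasted Plvap comparison, where 2.25% of all genes were. Serpina6, which encodes corticosteroid-binding globulin, the plasma carrier of corticosterone made by the liver, was higher, at a log2 fold change of 0.78 ± 0.16 with an adjusted p of 0.0237. In the average over the 4 states 2 of those 6 were called, Serpina6 at 0.74 ± 0.15 (adjusted p 0.00202) and Akr1d1, a steroid 5-beta-reductase that inactivates the hormone, at 0.80 ± 0.18 (adjusted p 0.00441). Of all genes 5.58% were called in that average, and 3.13% were called higher. In the Cav1 experiment 0 of 6 were called. Of 12 genes of the receptor complex and its coregulators, 0 were called in any Plvap comparison, and 1 in the Cav1 experiment, Hspa8, at -0.65 ± 0.14 with an adjusted p of 0.0225. Of all genes 4.68% were called in the Cav1 experiment. On refeeding 8 of 12 rose and 2 fell in knockouts, and 7 rose and 3 fell in controls, where 24.6% and 24.1% of all genes were called higher and 22.6% and 22.7% lower. Among them were Fkbp4, an immunophilin that promotes receptor transport, at 1.5 ± 0.14 in knockouts and 1.71 ± 0.13 in controls, and Hsp90ab1, a chaperone of the receptor, at 1.61 ± 0.18 and 1.85 ± 0.17.

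A further 25 genes known to be induced by glucocorticoids gave 0 calls in the Plvap comparisons within each state, and 0 of 24 tested in the Cav1 experiment. Against the fast, 15 of 25 fell and 1 rose in refed knockouts, and 10 fell and 1 rose in refed controls, with median log2 fold changes of -1.1 and -0.74. Of all genes 22.6% fell and 24.6% rose in knockouts, and 22.7% fell and 24.1% rose in controls, with medians of 0.00484 and 0.0106. In controls the 11 of 25 called in either direction are near the 46.9% of all genes. Klf9, a transcription factor, was at -1.75 ± 0.19 in knockouts and -1.43 ± 0.19 in controls, and Angptl4, an inhibitor of lipoprotein lipase, at -2.77 ± 0.36 and -2.38 ± 0.35. On high-fat diet 6 of 25 fell and 0 rose in knockouts, and 9 fell and 0 rose in controls, where 7.22% and 4.25% of all genes fell. Pdk4, a kinase that restrains glucose oxidation, was at -1.997 ± 0.388 in knockouts and -1.92 ± 0.37 in controls, and Cdkn1a, an inhibitor of the cell cycle, at -2.42 ± 0.55 and -2.42 ± 0.58. On western diet 2 of 25 fell in knockouts, Cdkn1a and Ddit4, and 0 in controls. Of all genes 1.25% fell in knockouts, and 1.81% were called in either direction in controls.

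Some clock genes differed between the same groups. Of 12, 5 rose and 2 fell on high-fat diet against chow in knockouts, and likewise 5 and 2 in controls, where 8.23% and 4.21% of all genes rose and 7.22% and 4.25% fell, with Per2 at 1.46 ± 0.27 in knockouts and 1.87 ± 0.27 in controls. On refeeding 2 of 12 rose and 1 fell in knockouts, and 3 rose and 2 fell in controls. Of all genes 47.2% and 46.9% were called there, in either direction. Per2 was at 2.34 ± 0.28 in refed knockouts and 2.81 ± 0.27 in refed controls. The time of death is not given in the sources used here, and the part of clock phase in the feeding and diet values was not tested. In the Plvap comparisons within each state 0 clock genes were called, and in the average over the states 1 was, Per3, at 0.85 ± 0.23 with an adjusted p of 0.0193.

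Genes that handle metal alongside the metallothioneins moved in both directions. Of 6 tested, 3 rose and 2 fell on refeeding in each genotype. Of all genes, 24.6% rose and 22.6% fell in knockouts, and 24.1% rose and 22.7% fell in controls. Mtf1, the metal-sensing factor that binds the metal response element, was at 0.91 ± 0.12 in refed knockouts and 1.07 ± 0.11 in refed controls, while Slc39a8, a zinc and manganese importer, was at -0.88 ± 0.12 and -0.96 ± 0.12. On high-fat diet 3 of 6 fell in knockouts, where 7.22% of all genes did. Among them was Slc30a1, a zinc exporter of the cell membrane, at -0.44 ± 0.13 and an adjusted p of 0.0181. In the average Plvap effect 1 of 6 fell, Slc30a10, a manganese exporter, at -0.45 ± 0.12 with an adjusted p of 0.0234. Of all genes 5.58% were called in that average, in either direction. Of 5 other genes of tyrosine and phenylalanine breakdown, the pathway Tat belongs to, 0 were called with Plvap knockout in any state or with Cav1 knockout. Hgd and Hpd, enzymes of the later steps, fell on high-fat diet in controls, at -0.77 ± 0.14 and -0.44 ± 0.14, where 4.25% of all genes fell. In knockouts 0 of the 5 were called, where 15.4% of all genes were.

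Within groups, several members varied together from liver to liver. The correlations below are over all 46 livers, of log2 CPM with a prior count of 2 after removal of group means, with livers shuffled within groups 100000 times for the p-values, 2-sided, and adjusted over 36 pairs. By Pearson's r 11 of 36 pairs passed, all of them positive. How many pairs of other genes would pass was not counted. By Spearman's rho 9 passed, among them the negative pairs of Hsd11b1 with Mt1 and Mt2. Tsc22d3 and Tat had an r of 0.851 and a rho of 0.856, Sgk1 and Tat 0.778 and 0.754, and Tsc22d3 and Sgk1 0.709 and 0.742. For each of these 3 the permutation p was 1e-05, the smallest that 100000 permutations can give, and 9e-05 after adjustment. Without the 2 livers farthest from the median of the first gene, r was 0.813, 0.742 and 0.652. All 3 pairs were positive in each of the 4 tables, from 0.843 to 0.875 for Tsc22d3 and Tat.

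**Figure D4:**
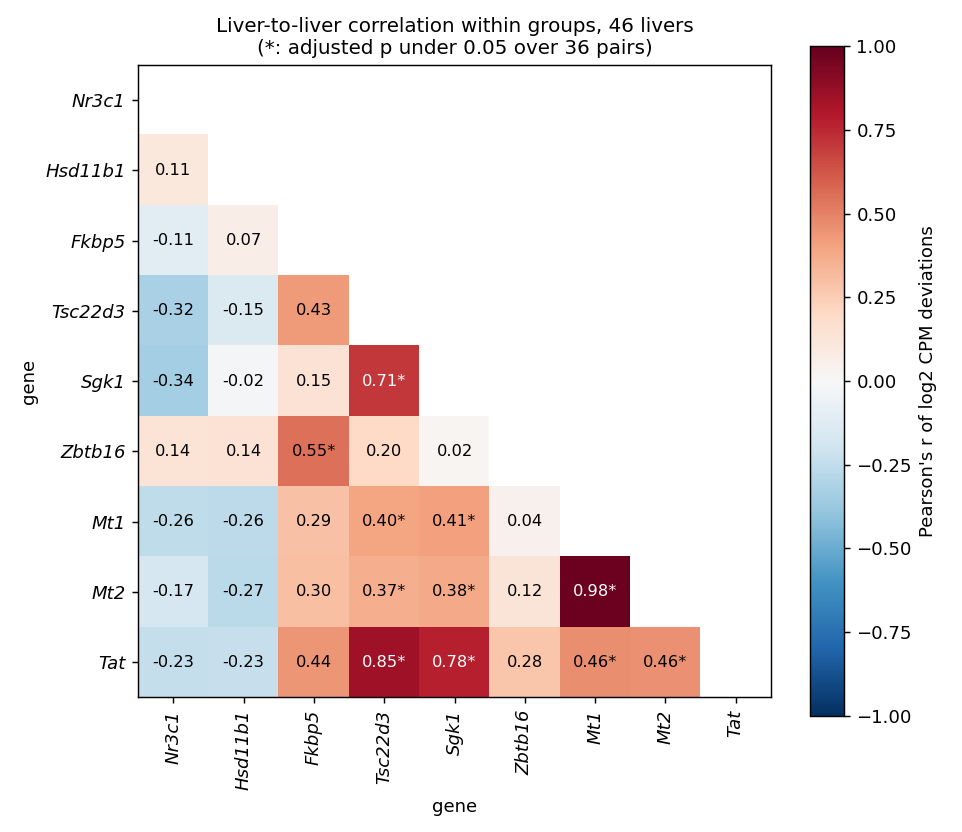
Pearson's r between the 36 pairs of genes over 46 livers after removal of group means, with red for positive and blue for negative values. Asterisks mark an adjusted permutation p under 0.05. Tat, Tsc22d3 and Sgk1 form 1 block, with r from 0.709 to 0.851, and Mt1 and Mt2 another, at 0.977.

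Mt1 and Mt2 had the highest r, 0.977, with a rho of 0.973 and a permutation p of 1e-05 (9e-05 adjusted). The genes are neighbours on chromosome 8 and alike in sequence, and how reads that match both were counted is not given in the sources used here. Their pairs with Tat were weaker, at r of 0.464 for Mt1 and 0.456 for Mt2, with permutation p-values of 0.00155 and 0.00131 (0.00797 and 0.00786 adjusted). Mt1 and Tsc22d3 had an r of 0.395 (permutation p 0.00944, adjusted 0.0425), and Mt1 and Sgk1 one of 0.412 (permutation p 0.0117, adjusted 0.0432). By rho these 2 pairs did not pass, with adjusted permutation p-values of 0.0537 and 0.0834. Both r also lie under 0.431, the size that 95% of 8523 genes compared stayed under with Mt1. In the Cav1 experiment both were negative, at -0.211 and -0.212 over 8 livers, against 0.839 and 0.611 over the 11 chow fasted livers.

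Fkbp5 paired with Zbtb16, at an r of 0.55 and a rho of 0.523 (permutation p 0.00115 and 0.00214, adjusted 0.00786 and 0.011). The pair was positive in all 4 tables, from 0.22 in the refed table to 0.726 in the diet table. Fkbp5 and Tat, at 0.444, had a permutation p of 0.0283 and 0.0745 after adjustment. The receptor gene had negative values with these targets that did not pass. Nr3c1 had an r of -0.322 with Tsc22d3 (permutation p 0.0487, adjusted 0.0975), of -0.337 with Sgk1 (permutation p 0.0593, adjusted 0.112) and of -0.235 with Tat (permutation p 0.169, adjusted 0.276). With Tsc22d3 it was negative in 3 tables and 0.524 in the refed one. Hsd11b1 and the metallothioneins had negative values. With Mt2 its r was -0.272 (permutation p 0.0174, adjusted 0.0522) and its rho -0.408 (permutation p 0.00524, adjusted 0.0236). With Mt1 they were -0.259 (permutation p 0.0311, adjusted 0.0745) and -0.399 (permutation p 0.0075, adjusted 0.03).

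**Figure D5:**
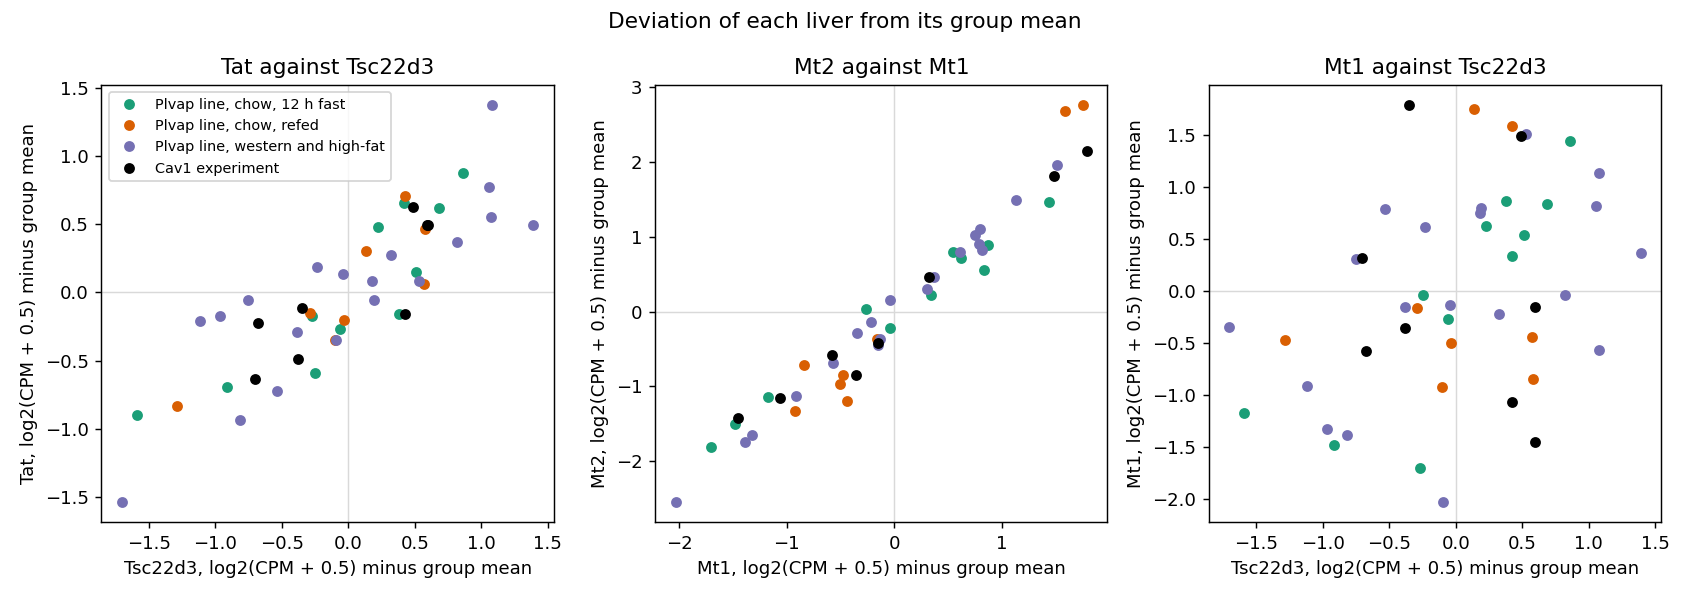
Deviation of each of the 46 livers from its group mean, in log2(CPM + 0.5), for Tat against Tsc22d3, Mt2 against Mt1, and Mt1 against Tsc22d3. Colours give the 4 tables. Tat follows Tsc22d3 in every table (r from 0.843 to 0.875), whereas Mt1 follows it in the chow fasted livers (0.839) and not in the Cav1 experiment (-0.211).

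The genes most like each member over the 46 livers were taken by the same correlation among genes with at least 5 CPM on average in every table and a count in at least 80% of livers, and are given as a description. For Tsc22d3 they were Kcnk5 (r 0.852), Tat (0.851) and Slc37a4, the glucose 6-phosphate transporter (0.841). For Tat they were Tsc22d3, Kcnk5 (0.839) and Frmd4b (0.831), and for Sgk1 Trp53inp1 (0.802), Tat and Cep85l (0.772). Zbtb16 was closest to Arhgef26 (0.778) and to Lpin1 and Lpin2 (0.708 and 0.692), phosphatidate phosphatases, and Fkbp5 to Pim3 (0.693), St3gal5 (0.672) and Arhgef26 (0.625). After Mt2 itself, Mt1 was closest to Cyp3a13 (0.753) and Antxr2 (0.749), and Mt2, after Mt1, to Antxr2 (0.752) and Serping1 (0.751). Nr3c1 was closest to Lrp6 (0.834), Scaf11 (0.79) and Hectd4 (0.787), and Hsd11b1 to Hars2 (0.841), Acad8 (0.793) and Sirt3 (0.784). For Nr3c1, 95% of the 8523 genes compared had an r under 0.588 in size. That bound was 0.553 for Hsd11b1, 0.504 for Sgk1, 0.477 for Tsc22d3 and 0.457 for Tat. It was 0.431 for Mt1, 0.425 for Mt2, 0.319 for Fkbp5 and, over 8524 genes, 0.36 for Zbtb16.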

How the data were processed

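Per the submitters' processing notes, reads were aligned to GRCm39 with STAR 2.7.8a and counted per gene with featureCounts 2.0, with FastQC 0.11.9 and MultiQC 1.10.1 for quality. The authors deposited raw counts, 1 row for each Ensembl gene and 1 column for each of 46 libraries, per the file headers, and an exon length per gene in bases, used for CPM per kb. Strand setting, annotation release and treatment of shared reads are not given in the sources used here. For the refed and Cav1 experiments the feeding times come from the sample characteristics, since the protocol text differs. A table of gene names gave symbols for 52083 identifiers (94%).

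Each table, or all 8 Plvap groups together, was fitted with edgeR 4.0.16 in R 4.3.3 (TMM, filterByExpr with a minimum count of 10 and total of 15, robust quasi-likelihood F-test, Benjamini-Hochberg adjustment, called under 0.05). Errors of fold changes are standard errors. Printed CPM use TMM factors over all 46 libraries. Fits were tested on simulated data. The members, gene lists and tests were chosen with earlier results of these data known. All members were named, with called genes of the other lists (up to 4 per list and comparison) and the 3 genes most like each member. Alternatives were DESeq2 1.42.0, its size factors, limma-voom (limma 3.58.1), 2 other filters, removal of the trend with gene length, omission of mitochondrial and zero genes, only the groups compared, the replicate letter as a block, and each liver left out. The letters paired the refed livers, where the 4 same-lettered pairs deviated together (r from 0.247 to 0.299), and no other groups. P-values measure the spread between these samples, since the labels name no animals beyond sample codes.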

Additional observations from a re-analysis of the deposited data

Results flagged for a closer look

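Values that stood apart within a group of 4 to 6 livers by Dixon's test at the 95% level were found for 6 of 90 combinations of gene and group, and chance flags about 1 in 20. Hsd11b1 was lowest in replicate A of the western diet controls, at 255.8 CPM against a median of 728.7 CPM in the other 4, in the liver that also held adrenal cortex markers at 95.97 CPM in sum. Mt1 and Mt2 were highest in replicate C of the refed controls, at 353.6 CPM against 75.06 CPM and at 115.8 CPM against 8.998 CPM in the median of the others. Sgk1 was highest in replicate B of the high-fat knockouts, at 41.65 CPM against 17.63 CPM, and that liver also had the highest neutrophil marker sum, 117.7 CPM. Tat was highest in replicate D of the Cav1 knockouts, at 1248 CPM against 790.5 CPM, and Zbtb16 in replicate C of the Cav1 wild types, at 8.807 CPM against 4.895 CPM. Without the last of these livers Zbtb16 was still called. What sets these livers apart was not tested.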

How the results depend on the processing

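Over the settings other than leaving out a liver, 1295 of the members' test results kept their side of the threshold, 27 gained and 10 lost a call. The estimate changed sign in 41 of 1332, 23 of them with limma-voom and 12 with the replicate block, and in 0 of these was it called in either fit. Leaving out each liver, 4458 kept their side, 22 gained and 38 lost a call, and 134 of 4518 estimates changed sign, 0 of them called in either fit. Between Plvap knockouts and controls on chow fasting, 1 member was called, 2 with DESeq2 or no filter and 4 with the replicate block, and 0 to 2 without 1 liver. The letters do not pair those livers. In the Cav1 experiment 1 was called, 2 with DESeq2, no filter, the length trend removed or the replicate block, and 1 to 2 without 1 liver. Western against high-fat knockouts gave 0, with DESeq2 2, and 0 to 1 without 1 liver, as did the controls (0, and 0 to 1). Refed against fasted controls gave 1, 2 with DESeq2, limma-voom or the length trend removed, and 1 to 4 without 1 liver. Western against chow knockouts gave 1, 2 with DESeq2 or only the groups compared, 3 with limma-voom, 0 with no filter, and 0 to 2 without 1 liver. With only the groups compared the 2 were Tat and Nr3c1, in place of Fkbp5. Western against chow controls gave 0, and 0 to 1 without 1 liver. High-fat against chow gave 3 in controls (0 with no filter, 0 to 3 without 1 liver) and 4 in knockouts (2 with only the groups compared, 3 to 5 without 1 liver). The cause of these shifts was not tested. The block changed no other call of a member, and could not be fitted across tables.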
